A study of Homo sapiens with 6 samples.

Results

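Interferon-stimulated genes are the transcripts that a cell makes more of after an interferon signal, and 45 of them were examined among the 45372 Ensembl genes listed for human umbilical vein endothelial cells (HUVECs). The 45 were taken as a named list of interferon response symbols, and all 45 symbols matched an Ensembl ID in the files. HUVECs are primary cells from the vein of the umbilical cord. The mimic group comprised 3 libraries from cells that received a synthetic mimic of miR-409-3p at 50 nM, and the control group comprised 3 libraries from cells given 50 nM of a non-specific control RNA. Both groups were wild type, received the same lipid reagent, and gave RNA at 48 h. The titles of all 6 libraries also call the cells not treated, without saying which treatment is meant. The labels name 3 biological replicates a group but not whether they came from separate donors, so p-values cover the spread between these libraries, which may be technical.

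Interferons bind surface receptors whose JAK kinases phosphorylate STAT factors. A complex that holds STAT2 and IRF9 binds the interferon-stimulated response element (ISRE), and the gamma-activated site (GAS) is a second DNA element of the response. The induced proteins block viral entry, degrade or sequester viral RNA, tag proteins with ISG15 and widen antigen presentation. A basal level of several of these transcripts is kept in many cells without infection. A transfected double-stranded RNA, such as a microRNA mimic or its control, can itself be seen by RNA sensors that induce interferon, and both groups here received such an RNA.

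The supplied microRNA is shown first because pairing of a transcript with the seed is the usual mark of a microRNA target. The mature strand, from RefSeq on GRCh38.p14 (chr14:101065346-101065367, plus strand), is printed 5′ to 3′ with the seed, bases 2 to 8, in capitals.
hsa-miR-409-3p: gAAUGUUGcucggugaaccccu
A site that pairs with the whole seed reads CAACATT in the transcript written as DNA, and an 8mer adds an A after it (CAACATTA). The longest annotated 3′ UTR of each member (GENCODE 29, GRCh38) was searched, and 7 of 45 members (15.6%) held CAACATT, against 12.8% of all 19309 genes searched. Of the 11980 searched genes that were also tested for a change, 14.4% held CAACATT. An 8mer was present in 3 of the 7 members, 6.67% of the 45, against 3.07% of all genes searched and 3.45% of the tested ones. Shorter matches are not printed. AACATTA was the longest match in 3 members, IFIT1, PARP9 and SAMD9L (6.67%, against 8.67% of genes searched), and AACATT in 9 (20%, against 20.6%). The CAACATT sites are printed in the transcript's direction with the 14 bases before them, and capitals mark the site.
IFIT2 (8mer, chr10:89308702-89308723, plus strand): gcttaagtatatatCAACATTA
USP18 (8mer, chr22:18177253-18177274, plus strand): ttcactttgagaacCAACATTA
SP100, first site (8mer, chr2:230543183-230543204, plus strand): gacaaacccacagaCAACATTA
SP100, second site (7mer, chr2:230543368-230543389, plus strand): tccctgtttgcacaCAACATTg
STAT2 (7mer, chr12:56343039-56343060, minus strand): gtatggaaggatttCAACATTt
OAS3 (7mer, chr12:112973207-112973228, plus strand): atttcatctattgcCAACATTt
SAMD9 (7mer, chr7:93100895-93100916, minus strand): ctcaaactgaggagCAACATTt
TRIM21 (7mer, chr11:4385124-4385145, minus strand): agtcacttcaccatCAACATTc
A match is a description of letters and not a shown target. Of the 7 members, log2 fold changes were below 0 for OAS3 (-0.16), USP18 (-0.15), STAT2 (-0.14), SP100 (-0.04) and SAMD9 (-0.0049). They were above 0 for IFIT2 (0.58) and TRIM21 (0.0041). Of all 13680 genes tested for a change, 7738 were below 0. A link between site and change was not tested.

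Start-site windows, 250 bases before to 50 after each annotated start, were available from RefSeq (GRCh38.p14) for 38 of the 45 members. The core of an ISRE, read as GAAA, any 2 bases and GAAA on either strand, occurred in the windows of 27 of the 38 members (71.1%), against 4.38% of 27305 genes. At least 2 matches, overlapping ones counted, lay in a single window of 16 members, against 0.311% of genes. The letters TTCNNNGAA, the core of a GAS, occurred in 14 of the 38 members (36.8%), against 9.38% of genes. For 8 members with such a core, all described library by library in the results, the match nearest the start of the first listed window is shown in 30 bases of the gene's own strand, with that core or its reverse complement in capitals.
IFIT3 (chr10:89327865-89327894, plus strand): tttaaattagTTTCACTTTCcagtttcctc
IFITM3 (chr11:320876-320905, minus strand): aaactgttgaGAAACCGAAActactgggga
BST2 (chr19:17405735-17405764, minus strand): ctggGAAACTGAAACTGAAAacctaattaa
MX1 (chr21:41420559-41420588, plus strand): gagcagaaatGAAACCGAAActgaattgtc
ISG15 (chr1:1013380-1013409, plus strand): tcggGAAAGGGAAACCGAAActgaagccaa
HERC5 (chr4:88457035-88457064, plus strand): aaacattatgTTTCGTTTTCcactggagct
TRIM21 (chr11:4393666-4393695, minus strand): cttctgagcgGAAACTGAAAGTGAAAtagg
B2M (chr15:44711369-44711398, plus strand): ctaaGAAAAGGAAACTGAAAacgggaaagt
The windows of STAT2, HERC6, CMPK2, SAMD9L, SP100, XAF1 and PSMB9 held neither set of letters, which says nothing about the factors that act on them.

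**Figure D1:**
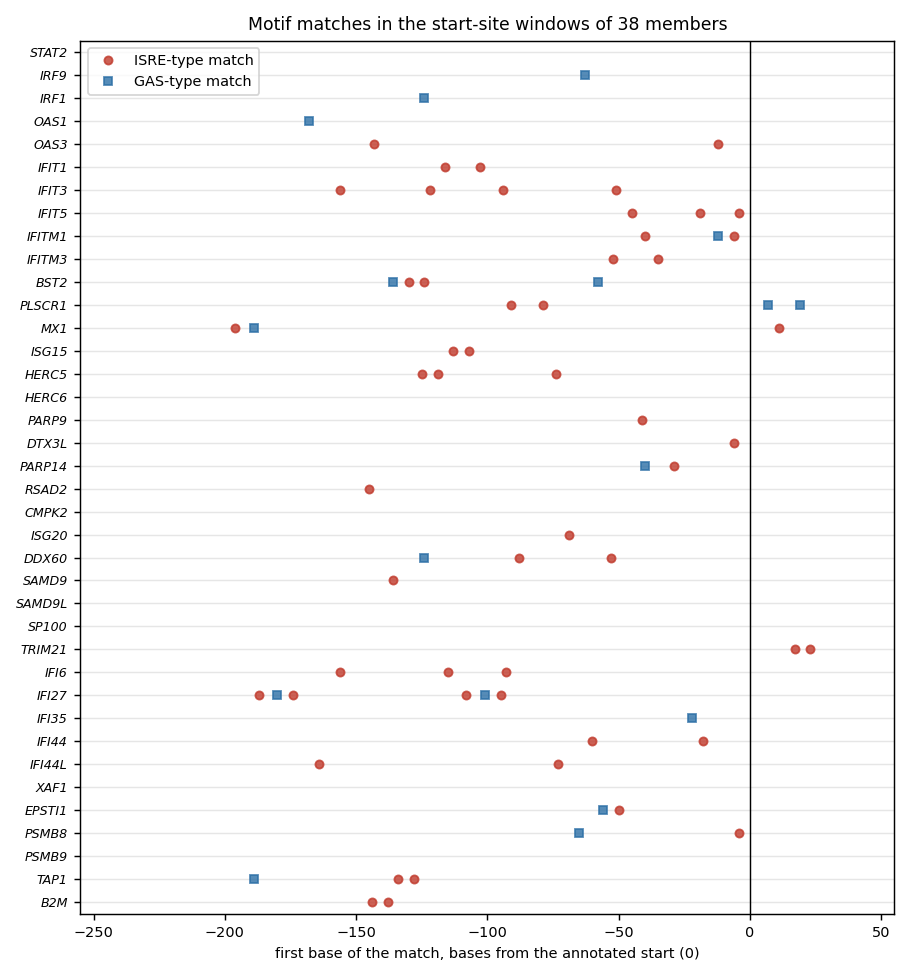
Positions of motif matches in the start-site windows of 38 members, in bases from the annotated start. Circles mark the ISRE core on either strand and squares TTCNNNGAA; a gene with several annotated starts shows the matches of each window, so a single match can appear more than once. Of the 38 rows, 27 carry a circle and 14 a square.

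TPM, the unit of the deposited values, divides reads by gene length and scales each library to the same total. Most low values fit a length that joins all annotated exons of a gene, which can exceed the length of its transcripts. Levels of different genes are thus compared only roughly. The values imply 29.8 to 35.8 M assigned reads in the mimic libraries and 32.2 to 34.8 M in the control libraries. Endothelial markers were abundant, with PECAM1 at 1092 ± 58.2 TPM in mimic cells and 1048 ± 27.8 TPM in control cells (mean ± SD, n = 3 each, as for all values given this way). Of 10 leukocyte markers, 6 (PTPRC, CD3E, ITGAM, NKG7, MS4A1 and HLA-DRA) were listed at 0 in all 6 libraries, and CD14, LYZ and CD74 were under 1 TPM. The tenth, the lysosomal gene CD68, averaged 17.7 ± 1.40 TPM in mimic cells and 18.0 ± 1.59 TPM in control cells, and the list summed to 17.1 to 19.3 TPM in mimic libraries and 17.2 to 20.2 TPM in control libraries. Of 5 plasmacytoid dendritic cell markers, 3 (CLEC4C, LILRA4 and GZMB) were listed at 0 throughout. The other members of that list were IL3RA, a cytokine receptor chain, at 45.3 ± 2.84 TPM in mimic cells and 44.7 ± 4.63 TPM in control cells, and TCF4, a transcription factor, at 65.5 ± 5.17 TPM in mimic cells and 60.8 ± 3.47 TPM in control cells. The list summed to 104.8 to 119.7 TPM in mimic libraries and 101.4 to 113.1 TPM in control libraries. In bulk RNA, fewer cells of a type and less RNA per cell cannot be told apart.

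The 45 genes were present at very unequal levels. Averaged over the 6 libraries, 3 had at least 100 TPM, 9 had 30 to under 100, 11 had 10 to under 30, 16 had 1 to under 10 and 6 were under 1 TPM. Together they took 0.211% to 0.227% of TPM in mimic libraries and 0.215% to 0.222% in control libraries. The filter for testing asked for 1 TPM or more in any 3 of 6 libraries, and 39 of the 45 members passed that filter, as did 13680 genes in all.

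**Figure D2:**
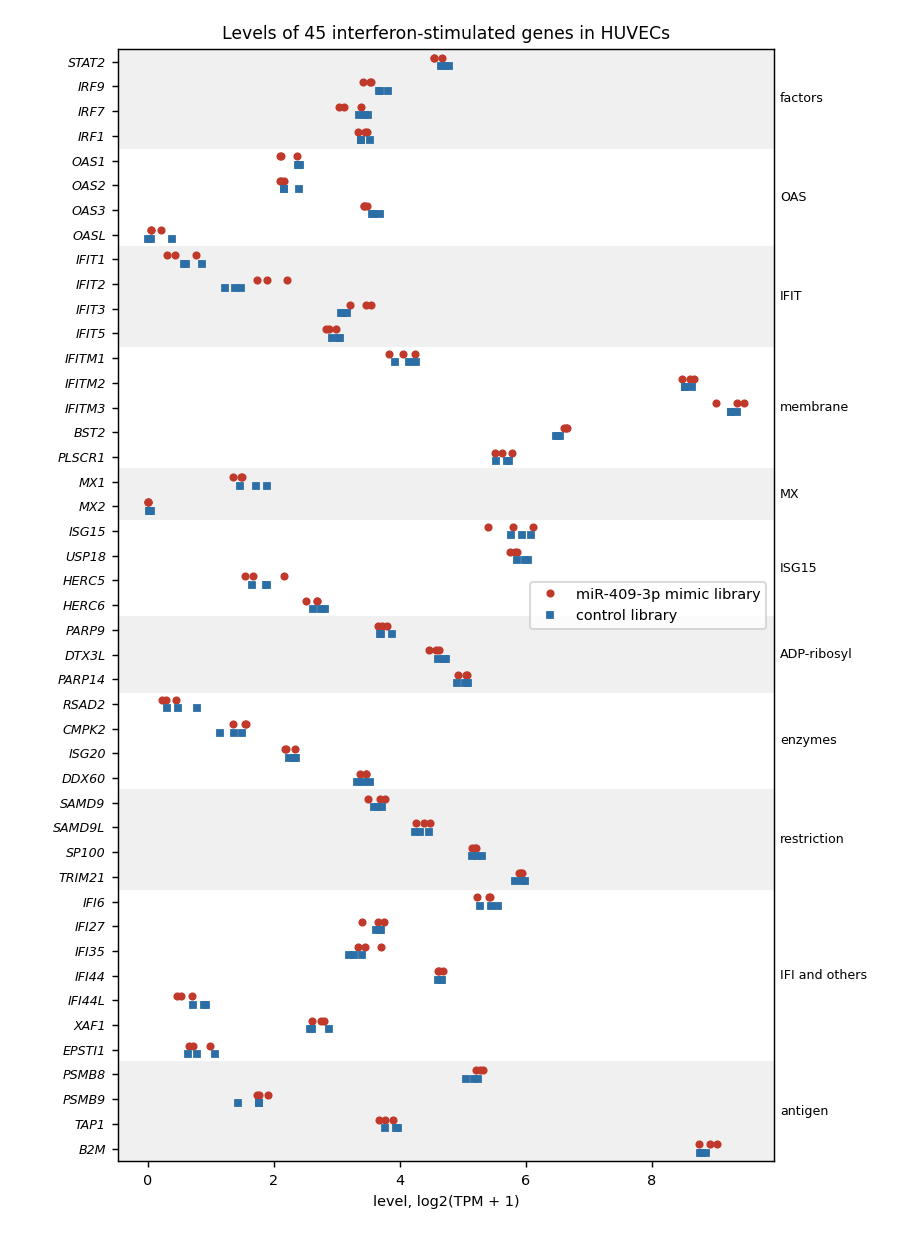
Level of each of the 45 genes as log2(TPM + 1), with circles for the 3 mimic libraries and squares for the 3 control libraries of each gene, grouped by role. IFITM3, B2M and IFITM2 stand at the right, while OASL, MX2, RSAD2, IFIT1, IFI44L and EPSTI1 lie near 0 in both groups.

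None of the 39 tested members passed in either direction. By limma on log2(TPM + 1) with Benjamini-Hochberg adjustment over all 13680 genes, 0 members rose and 0 fell at an adjusted p under 0.05, where 0.431% of all tested genes passed (0.132% rose and 0.3% fell). The lowest adjusted p among the members was 0.194, for IFIT2. At an unadjusted p under 0.05, 3 were higher in mimic cells (IFIT2, IFIT3 and BST2) and 3 lower (IRF9, IRF7 and USP18), 15.4% of the tested members against 10.7% of all tested genes (3.05% higher and 7.64% lower). The median log2 fold change was -0.02 over the tested members and -0.02 over all tested genes. It was above 0 for 14 members and below 0 for 25, against 5942 and 7738 of the 13680 tested genes. The groups did not overlap for 7 tested members (17.9%), against 15.7% of all tested genes, with mimic above in 3 (5.16% of all tested genes) and below in 4 (10.5% of all tested genes). These shares were near the background.

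The size of change that the data allow was small for most members. Of the 39 tested members, 37 had a 95% interval within a 1.5-fold change in either direction and 39 within a 2-fold change, on the log2(TPM + 1) scale, which understates change in low genes. With a pseudocount of 0.1 instead of 1, 35 lay within 1.5-fold and 38 within 2-fold, and the upper bound of the log2 fold change of IFIT2 was 1.33, outside the 2-fold limits. Over all tested genes, 88.4% had an interval within 1.5-fold and 96.7% within 2-fold. The median standard error was 0.087 for the members and 0.083 for all tested genes.

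**Figure D3:**
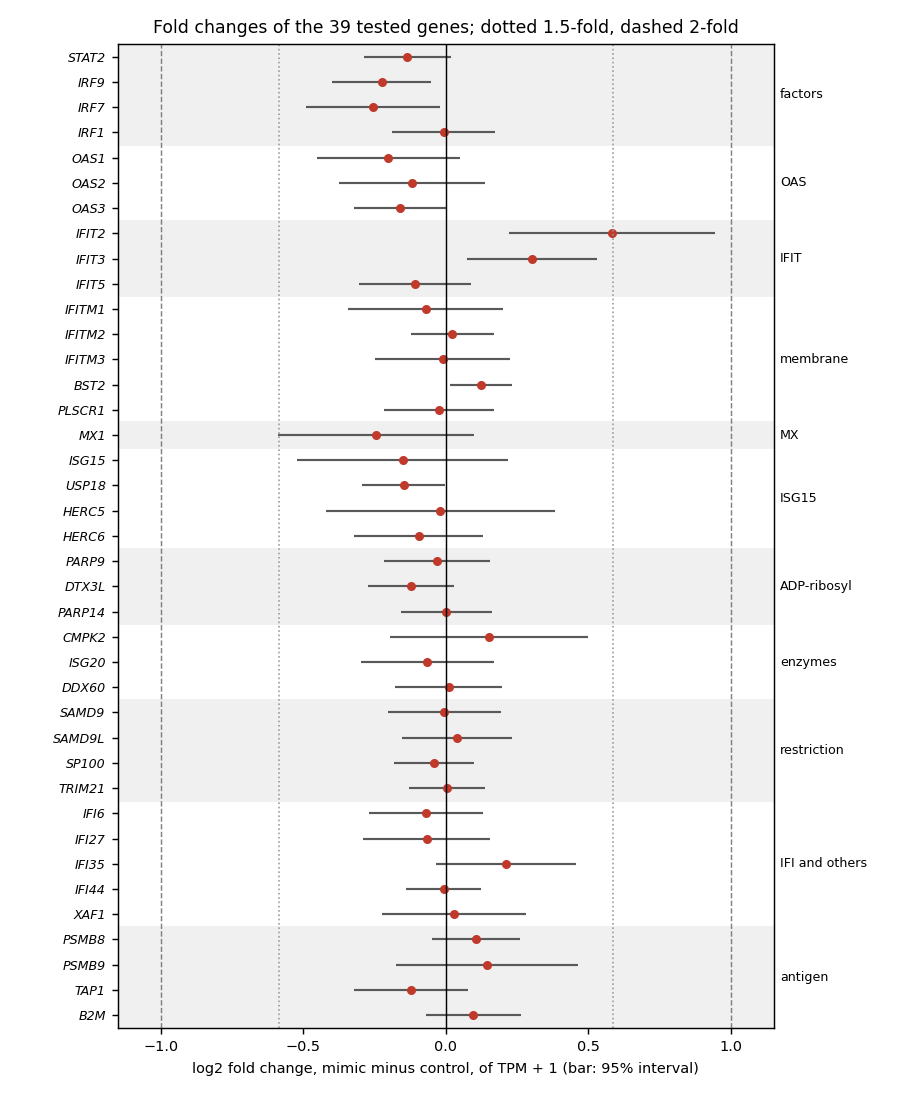
Log2 fold change of TPM + 1, mimic minus control, for the 39 tested members with 95% intervals from limma (n = 3 libraries a group); dotted lines mark 1.5-fold and dashed lines 2-fold. All 39 intervals lie inside the dashed lines, and those of IFIT2 and MX1 cross a dotted line.

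The signalling genes come first. STAT2, a subunit of the ISRE-binding complex, measured 22.3, 24.5 and 22.3 TPM in mimic libraries 1 to 3, against 24.3, 25.4 and 26.5 TPM in control libraries 1 to 3. Its log2 fold change was -0.14 (SE 0.07, limma adjusted p = 0.536), and mimic library 2 lay within the control range. IRF9, the DNA-binding subunit of that complex, measured 10.5, 9.70 and 10.6 TPM in mimic libraries, against 13.0, 11.9 and 11.7 TPM in control libraries. Every mimic library was below every control library for IRF9, and the log2 fold change of -0.23 (SE 0.08) did not pass (limma adjusted p = 0.314). Exons of IRF9 overlap those of AL136295.5 on the same strand in the annotation, so reads of the pair may not be told apart. IRF7, the factor that amplifies interferon production, measured 7.67, 7.15 and 9.38 TPM in mimic libraries, against 9.19, 10.3 and 9.86 TPM in control libraries. Mimic library 3 was above control library 1, and the log2 fold change was -0.26 (SE 0.10, limma adjusted p = 0.415). IRF1, a factor induced early by interferon gamma, measured 9.92, 9.10 and 10.1 TPM in mimic libraries, against 9.45, 10.5 and 9.41 TPM in control libraries. The IRF1 ranges overlapped, with a log2 fold change of -0.0073 (SE 0.08) that was positive with median-of-ratios and quantile scaling.

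The 2′-5′ oligoadenylate synthetases sense double-stranded RNA and make the messenger that activates RNase L. OAS1, OAS2 and OAS3 lie within 105 kb of chromosome 12 and are described here after their values were seen. OAS1 measured 3.28, 4.14 and 3.32 TPM in mimic libraries, against 4.25, 4.20 and 4.32 TPM in control libraries, and OAS3 measured 9.80, 9.79 and 10.2 TPM in mimic libraries, against 10.7, 11.9 and 11.1 TPM in control libraries. OAS2 averaged 3.35 ± 0.106 TPM in mimic cells and 3.74 ± 0.478 TPM in control cells. The groups did not overlap for OAS1, OAS2 or OAS3, with mimic below, as was so for 10.5% of all tested genes. For OAS2 mimic library 2 and control libraries 1 and 2 all rounded to 3.47 TPM. In the order OAS1, OAS2 and OAS3 the log2 fold changes were -0.20 (SE 0.11), -0.12 (SE 0.11) and -0.16 (SE 0.07). A change of the family as a set was not tested. The limma adjusted p of the family was 0.476 or more. OASL, a related protein without that enzyme activity, was not tested, with an estimated 1, 1 and 4 reads in mimic libraries, against 0, 1 and 9 in control libraries.

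The IFIT proteins bind viral RNA, and their 4 genes lie within 137 kb of chromosome 10. IFIT2 had the largest fold change of the tested members and the third lowest level among them. It measured 2.32, 3.62 and 2.70 TPM in mimic libraries, an estimated 78, 132 and 84 reads, against 1.33, 1.60 and 1.79 TPM in control libraries, an estimated 45, 53 and 63 reads. Every mimic library was above every control library, and the mimic mean was 1.83 times the control mean. The log2 fold change of 0.58 (SE 0.16, 95% interval 0.22 to 0.95) did not pass (limma adjusted p = 0.194, and 0.156 to 0.428 over the other settings that tested it). IFIT2 carries an 8mer site of the microRNA, and its exons overlap LIPA on the other strand, which measured 54.5 ± 2.80 TPM in mimic cells and 55.2 ± 2.34 TPM in control cells. Use of strand in the counting is not given, so reads of the pair may not be told apart.

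IFIT3, which binds and stabilises IFIT1, measured 10.6, 10.1 and 8.25 TPM in mimic libraries, against 7.51, 7.93 and 7.33 TPM in control libraries. It too had every mimic library above every control library, with a log2 fold change of 0.30 (SE 0.10, limma adjusted p = 0.301). The other family members had lower means in mimic cells, a difference from IFIT2 and IFIT3 that was not tested. IFIT5, which binds RNA ends, averaged 6.44 ± 0.409 TPM in mimic cells and 7.03 ± 0.361 TPM in control cells. IFIT1, which recognises RNA lacking a methylated cap, was not tested and measured 0.693, 0.341 and 0.230 TPM in mimic libraries, against 0.523, 0.479 and 0.801 TPM in control libraries.

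**Figure D4:**
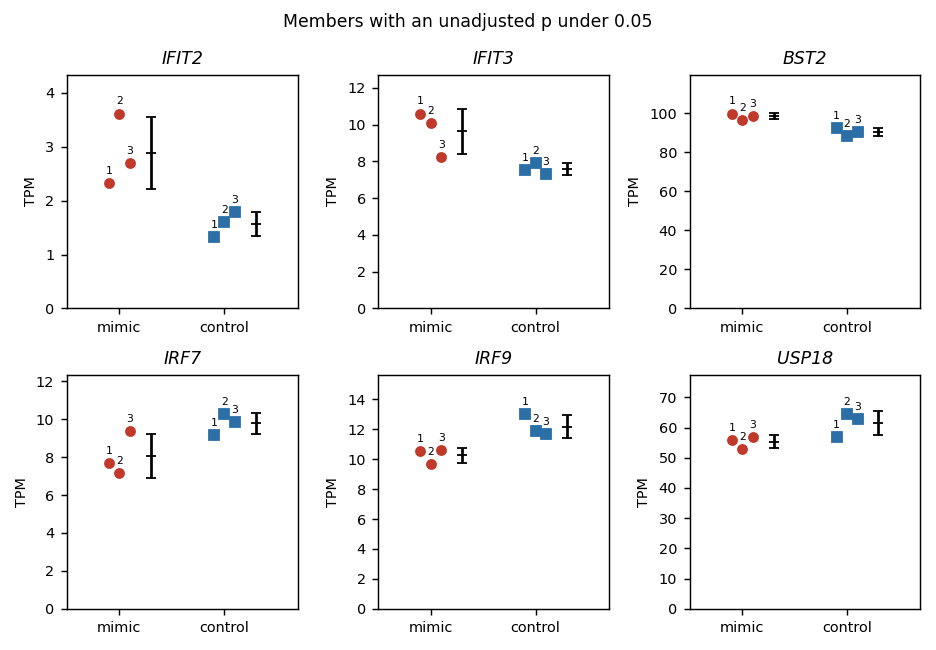
TPM of the 6 members with an unadjusted p under 0.05, with the 3 mimic libraries left of the 3 control libraries in each panel, library numbers above the points, and bars for the mean ± SD (n = 3). IFIT2, IFIT3 and BST2 have every mimic point above every control point, IRF9 has every mimic point below, and IRF7 and USP18 overlap.

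Membrane proteins held 2 of the 3 highest levels in TPM. IFITM3, which blocks fusion of endocytosed viruses, had the highest TPM of the members. It measured 653, 516 and 703 TPM in mimic libraries, against 651, 609 and 612 TPM in control libraries. Mimic library 2 was the lowest and mimic library 3 the highest of the 6, and the log2 fold change was -0.01 (SE 0.10), positive with median-of-ratios scaling. IFITM2, a close paralogue, measured 391, 354 and 406 TPM in mimic libraries, against 397, 369 and 366 TPM in control libraries, with overlapping groups and a log2 fold change of 0.02 (SE 0.06). IFITM1, the surface-located paralogue, averaged 15.5 ± 2.32 TPM in mimic cells and 16.3 ± 1.95 TPM in control cells. The 3 IFITM genes lie within 19.9 kb of chromosome 11, are similar in sequence, and exons of IFITM1 and IFITM2 overlap in the annotation, so reads may be split between them.

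BST2, or tetherin, which holds budding virions at the surface, measured 99.8, 96.7 and 98.8 TPM in mimic libraries, against 92.3, 88.3 and 90.4 TPM in control libraries. The groups did not overlap, and the log2 fold change was 0.12 (SE 0.05, limma adjusted p = 0.394). PLSCR1, a phospholipid scramblase, averaged 48.7 ± 4.77 TPM in mimic cells and 49.5 ± 3.72 TPM in control cells.

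The dynamin-like MX GTPases were low, with MX1 tested and MX2 not. MX1 measured 1.55, 1.82 and 1.77 TPM in mimic libraries, an estimated 109, 139 and 115 reads, against 1.74, 2.28 and 2.69 TPM in control libraries, an estimated 124, 160 and 201 reads. Mimic libraries 2 and 3 were above control library 1, and the log2 fold change of -0.25 (SE 0.15, 95% interval -0.59 to 0.10) was the second lowest of the tested members. It was -0.14 without control library 3. MX2 was listed at 0 in all mimic libraries, against an estimated 4, 1 and 2 reads in control libraries. As 3 reads correspond to 0.026 to 0.030 TPM for MX2, both groups were at about the smallest detectable level.

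ISG15 is a ubiquitin-like protein that is both secreted and joined to other proteins. It measured 54.9, 41.3 and 68.4 TPM in mimic libraries, against 66.8, 60.2 and 53.3 TPM in control libraries. The mimic libraries spanned the whole control range, the log2 fold change was -0.15 (SE 0.16, limma adjusted p = 0.871), and without mimic library 2 it was 0.03. USP18 removes ISG15 from proteins and shuts off the type I receptor. USP18 measured 56.0, 52.9 and 56.9 TPM in mimic libraries, against 56.9, 64.6 and 62.7 TPM in control libraries, with a log2 fold change of -0.15 (SE 0.06, limma adjusted p = 0.462). Mimic library 3 and control library 1 met at the same level for this gene, which also carries an 8mer site of the microRNA. USP41, a near-identical copy, was listed at 0 in all 6 libraries but control library 1, at 0.303 TPM there, so reads of the pair may have been assigned to USP18.

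HERC5, the main ligase for ISG15 in human cells, measured 2.17, 3.45 and 1.92 TPM in mimic libraries, against 2.15, 2.68 and 2.69 TPM in control libraries. Mimic library 2 was the highest and mimic library 3 the lowest, and the log2 fold change was -0.02 (SE 0.18). HERC6, its neighbour on chromosome 4, averaged 5.19 ± 0.415 TPM in mimic cells and 5.61 ± 0.454 TPM in control cells. UBE2L6, the conjugating enzyme of the same pathway and not a member, measured 19.8, 18.9 and 18.2 TPM in mimic libraries, against 16.2, 14.9 and 14.8 TPM in control libraries. Its groups did not overlap, and its log2 fold change of 0.29 (SE 0.07) did not pass (limma adjusted p = 0.124).

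PARP9 and DTX3L form a complex that ADP-ribosylates ubiquitin, and PARP14 is a mono-ADP-ribosyltransferase beside them on chromosome 3. PARP9 averaged 12.2 ± 0.675 TPM in mimic cells and 12.5 ± 1.05 TPM in control cells, and DTX3L averaged 22.5 ± 1.24 TPM in mimic cells and 24.6 ± 1.03 TPM in control cells. PARP14 averaged 31.3 ± 1.77 TPM in mimic cells and 31.3 ± 1.96 TPM in control cells. The log2 fold changes lay between -0.12 and 0.0010, with overlapping groups. Exons of PARP9 and DTX3L overlap on opposite strands.

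The nucleotide and RNA enzymes were low in TPM. RSAD2, or viperin, which makes a chain-terminating nucleotide, had an estimated 14, 9 and 6 reads in mimic libraries, against 15, 9 and 30 in control libraries, and was not tested. CMPK2, a mitochondrial nucleotide kinase whose exons overlap those of RSAD2 on the other strand, averaged 1.80 ± 0.222 TPM in mimic cells and 1.53 ± 0.297 TPM in control cells. ISG20, a 3′-5′ exonuclease, averaged 3.73 ± 0.295 TPM in mimic cells and 3.94 ± 0.188 TPM in control cells. DDX60, a helicase that assists RNA sensing, averaged 9.77 ± 0.391 TPM in mimic cells and 9.71 ± 0.817 TPM in control cells. These groups overlapped.

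SAMD9 and SAMD9L, which restrict translation and growth, SP100, a scaffold of nuclear bodies, and TRIM21, a cytosolic antibody receptor, stood at moderate levels. TRIM21 measured 59.7, 60.4 and 58.6 TPM in mimic libraries, against 55.7, 60.6 and 62.1 TPM in control libraries, so the mimic values lay inside the control range. SAMD9 averaged 11.5 ± 1.16 TPM in mimic cells and 11.6 ± 0.547 TPM in control cells, and SAMD9L averaged 19.8 ± 1.64 TPM in mimic cells and 19.2 ± 1.58 TPM in control cells. SP100, with 2 sites of the microRNA, averaged 35.3 ± 0.725 TPM in mimic cells and 36.4 ± 2.12 TPM in control cells. The 4 log2 fold changes lay between -0.04 and 0.04. Those of the members with a CAACATT site were -0.0049 for SAMD9, 0.0041 for TRIM21 and -0.04 for SP100. SAMD9L, with the match AACATTA and not CAACATT, was at 0.04. The TRIM21 value changed sign without mimic library 2 and without control library 1.

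Of the IFI genes and others, IFI35, a cytosolic partner of NMI, had the third largest positive fold change. It measured 12.02, 9.13 and 9.93 TPM in mimic libraries, against 8.68, 9.52 and 8.14 TPM in control libraries. Mimic library 2 was below control library 2, and the log2 fold change was 0.21 (SE 0.11, limma adjusted p = 0.556), or 0.11 without mimic library 1. IFI6, an endoplasmic reticulum and mitochondrial protein, averaged 40.0 ± 3.07 TPM in mimic cells and 42.1 ± 4.32 TPM in control cells. IFI27, a mitochondrial and nuclear membrane protein, averaged 11.2 ± 1.52 TPM in mimic cells and 11.7 ± 0.327 TPM in control cells.

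IFI44 and XAF1, an antagonist of the apoptosis inhibitor XIAP, also had overlapping groups. IFI44 averaged 23.9 ± 0.734 TPM in mimic cells and 24.0 ± 0.534 TPM in control cells, and XAF1 averaged 5.56 ± 0.444 TPM in mimic cells and 5.45 ± 0.745 TPM in control cells. EPSTI1 and IFI44L did not reach the filter. IFI44L measured 0.432, 0.615 and 0.375 TPM in mimic libraries, against 0.636, 0.851 and 0.902 TPM in control libraries. No library overlapped for IFI44L, an estimated 121 reads in mimic cells against 205 in control cells, and with no filter its limma adjusted p was 0.575. EPSTI1 averaged 0.726 ± 0.217 TPM in mimic cells and 0.779 ± 0.272 TPM in control cells.

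Antigen processing members ran from low to high levels. B2M, the light chain of class I molecules, measured 483, 524 and 430 TPM in mimic libraries, against 443, 434 and 464 TPM in control libraries. Mimic library 3 was the lowest of all 6, and the log2 fold change was 0.10 (SE 0.07, limma adjusted p = 0.767). It was 0.030 without mimic library 2 and 0.17 without mimic library 3. B2M had an estimated 71959 reads in mimic cells and 68224 in control cells. IFITM3, whose TPM was higher, had 20512 and 21104. The exon lengths were 6079 bases for B2M and 1348 bases for IFITM3, and the order of the 2 genes differs between TPM and reads. The immunoproteasome subunits PSMB8 and PSMB9 averaged 37.4 ± 1.61 and 2.48 ± 0.222 TPM in mimic cells, and 34.7 ± 2.36 and 2.16 ± 0.398 TPM in control cells. TAP1, a subunit of the peptide transporter, averaged 12.6 ± 1.04 TPM in mimic cells and 13.9 ± 1.17 TPM in control cells. PSMB8, PSMB9 and TAP1 lie within 18.9 kb of chromosome 6, where PSMB8 and PSMB9 overlap on opposite strands, and all 3 had overlapping groups.

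Mimic library 2 and control library 3 were most often at the extremes. Mimic library 2 was the lowest of the 6 for 12 of the 39 tested members (30.8%), against 19.99% of all tested genes, and these included IFITM2, IFITM3, ISG15, USP18, IFI6, IFI27, IRF7 and IRF9. Of the 1422 tested genes with an exon length under 1500 bases, 25.5% were lowest in that library. IFITM3 (1348 bases), ISG15 (941 bases) and IFI6 (865 bases) are of that length, and the other members lowest there are longer. Of other members that short, IFITM1 (1080 bases) was lowest in mimic library 3 and BST2 (1119 bases) in control library 2. The part of transcript length in these values was not tested. Control library 3 was the highest for 12 of the 39 tested members (30.8%), against 22.0% of all tested genes, among them OAS1, MX1, STAT2 and TAP1.

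**Figure D5:**
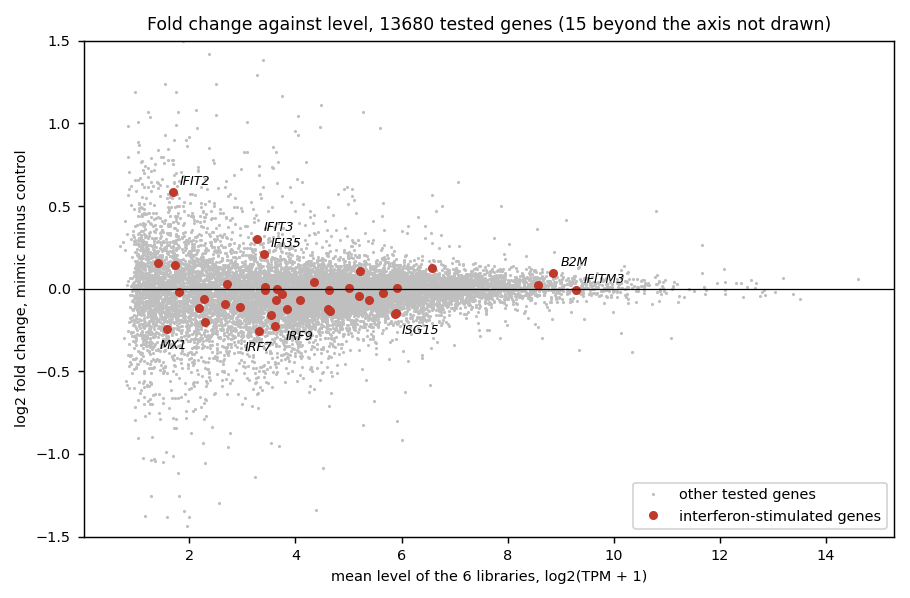
Log2 fold change, mimic minus control, against the mean level of the 6 libraries as log2(TPM + 1) for the 13680 tested genes, less 15 beyond 1.5 that are not drawn, with the 39 tested members in colour. IFIT2, at 0.58, is the farthest member from 0 and lies among low genes, where the grey cloud is widest.

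Genes upstream of the members were read from lists of the pathway. Of 10 interferon genes listed, 9, among them IFNB1, were at 0 in all 6 libraries, where 3 reads of IFNB1 would correspond to 0.393 to 0.462 TPM. IFNE, an interferon of epithelial tissues, averaged 0.280 ± 0.268 TPM in mimic cells and 0.348 ± 0.174 TPM in control cells. Of 11 receptors, JAKs and STATs, 10 were tested and 0 passed limma in either direction, with 0 at an unadjusted p under 0.05 and a median log2 fold change of -0.01. The list of 10 feedback and negative regulators also held UBE2L6, the conjugating enzyme described above, which is not itself a negative regulator. Of the 10, 8 were tested and 0 passed, with UBE2L6 the 1 gene at an unadjusted p under 0.05 and a median of -0.02.

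Of 35 further interferon-induced genes outside the list of 45, 30 were tested and 0 passed, with a median log2 fold change of 0.01. At an unadjusted p under 0.05, APOL1, a secreted lipid-binding protein gene, was higher at 0.14 (SE 0.06) and ZNFX1, a helicase that senses viral RNA, lower at -0.23 (SE 0.07). Of 16 other antigen presentation genes, all 16 were tested, 0 passed and 0 had an unadjusted p under 0.05. Their median was 0.04, and 12 of the 16 had a fold change above 0, against 5942 of all 13680 tested genes. The direction of this list as a set was not tested. HLA-E, a non-classical class I gene, averaged 534 ± 18.7 TPM in mimic cells and 500 ± 13.0 TPM in control cells.

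Among 10 double-stranded RNA sensors and adaptors, 1 fell, 0 rose and 9 did not pass, with a median of -0.0035. TICAM1, the adaptor of TLR3, measured 14.9, 13.9 and 16.5 TPM in mimic libraries, against 22.6, 24.3 and 23.6 TPM in control libraries. It fell to 0.642 of the control mean (log2 difference -0.61 with SE 0.08, and adjusted p = 0.0161 by limma and Benjamini-Hochberg). The adjusted p was 0.0809 without mimic library 1, 0.0726, 0.0902 and 0.0886 without control library 1, 2 and 3, 0.118 when low genes were kept, and 0.0524 when the prior had no trend. TLR3 itself averaged 3.13 ± 0.314 TPM in mimic cells and 2.82 ± 0.221 TPM in control cells. The RNA helicase sensor RIGI averaged 27.8 ± 1.87 TPM in mimic cells and 28.9 ± 2.86 TPM in control cells. Every mimic library was below every control library for 3 genes of this list, TICAM1, DHX58 and TBK1, against 10.5% of all tested genes. The log2 fold change was -0.24 for DHX58 (SE 0.11, limma adjusted p = 0.504) and -0.15 for TBK1 (SE 0.07, limma adjusted p = 0.468).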

How the data were processed

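The authors deposited 1 table per library with TPM for each Ensembl gene ID, per the file headers. Per the submitters' processing notes the genome builds were hg38 and GRCh38.p13. The aligner, counting program, annotation and strand use were not given in the sources used here. Libraries were made from 500 ng of RNA with 13 PCR cycles and read for 75 cycles, per the labels' protocols, and 4 technical replicates were pooled for each RNA sample, per the design text.

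Symbols matched 45102 of the 45372 IDs. Genes reaching 1 TPM in 3 or more of the 6 libraries entered a limma fit (version 3.58.1, R 4.3.3) of log2(TPM + 1) on group, with a trended prior. Benjamini-Hochberg adjustment covered all 13680 genes. Fold changes are mimic minus control. The members and lists were chosen with earlier results of these data known. All 45 members are named. Library values are given for those with an unadjusted p under 0.05, the 6 highest in level, the 3 largest positive and negative fold changes, the 3 widest in range, and STAT2, IRF9, IRF7 and IRF1. OAS1, OAS3, IFIT1 and IFI44L were added after their values were seen. From other lists, genes with an unadjusted p under 0.05 and IFNB1 are named, 1 further gene of the rule is not reported here, and further genes were named after their values were seen.

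TPM keeps no depth. Reads were estimated from the step between low values times the GENCODE 29 exon length, and 74.7% to 75.6% of low values were whole multiples within 0.02 steps. Estimated reads include PCR copies, and the 3-read limit covers counting error only. The fit was tested on simulated data. Tables were handled in Python 3.11.15 (pandas 2.3.3, numpy 2.4.6, scipy 1.17.1), and matplotlib 3.10.9 drew the plots. The 14 alternatives were other pseudocounts, filters, scalings and priors, a replicate block, and each library left out.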

Additional observations from a re-analysis of the deposited data

How the results depend on the processing

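In all 14 alternatives 0 of the 45 genes passed limma in either direction, and with no filter on low values all 45 entered the fit. The median log2 fold change of the members ran from -0.05 to 0.0006. Members at an unadjusted p under 0.05 numbered 1 lower with quantile scaling, and without 1 library 1 to 4 higher and 1 to 4 lower, against 3 and 3. Over all tested genes the 18 rises and 41 falls became 6 and 5 once low genes were kept, 36 and 79 under the 5 TPM filter, and 10 and 10 when the prior had no trend. Median-of-ratios scaling gave 33 rises, and quantile scaling 34. With any single library left out the rises ran from 3 to 20 and the falls from 5 to 27. The pathway lists' 1 fall, TICAM1, became 0 with no filter, an untrended prior or the replicate block, and ran from 0 to 1 without 1 library.

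The replicate numbers did not pair the libraries: deviations from group means correlated at 0.03, -0.09 and -0.11 for libraries 1, 2 and 3, and only the pair numbered 1 correlated best with its own number. With the replicate block 9 genes rose and 5 fell, and the limma adjusted p of TICAM1 was 0.0772.

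Some members near 0 changed sign. Quantile scaling put IRF1 at 0.040 and median-of-ratios at 0.011, and IFITM3 was 0.0093 with median-of-ratios scaling. Without 1 library the log2 fold change ran from -0.035 to 0.038 for IRF1, -0.10 to 0.12 for IFITM3, -0.019 to 0.078 for IFITM2, -0.32 to 0.034 for ISG15, -0.20 to 0.10 for HERC5 and -0.041 to 0.036 for TRIM21. The cause was not tested. The 1 TPM filter left OASL, MX2, RSAD2, IFIT1, IFI44L and EPSTI1 untested.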

Other observations

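Members that lie beside each other in the genome stood at unequal levels, given here as means over the 6 libraries. IFI44 averaged 23.9 TPM, while IFI44L, within the same 44.2 kb of chromosome 1, averaged 0.635 TPM. Exon lengths were 2038 bases for IFI44 and 10240 bases for IFI44L. In the same order, estimated reads were 1197 and 121 in mimic cells, and 1228 and 205 in control cells. IFIT3 averaged 8.62 TPM and IFIT1 averaged 0.511 TPM, although a start-site window of each held 2 matches to the ISRE core. PSMB8 averaged 36.1 TPM and PSMB9, which overlaps it on the other strand, averaged 2.32 TPM. Of members on different chromosomes, USP18 stood at 58.3 TPM and ISG15 at 57.5 TPM, while MX1 averaged 1.97 TPM and RSAD2 averaged 0.346 TPM. Their exon lengths were 2129, 941, 8616 and 4834 bases in that order. Estimated reads in that order were 2885, 1252, 363 and 30 in mimic cells, and 3279, 1416, 485 and 54 in control cells.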
